A study of Mus musculus with 9 samples.

Results

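Microglia are the resident macrophages of the brain parenchyma, and the cells described here are those that carried transcripts of several chemokines and cytokines at once. They were chosen by their own transcripts in libraries of single cells, captured in droplets, from EP ZFTA-RELA mouse ependymomas and control brain. A member had at least 1 UMI (unique molecular identifier, 1 captured transcript) in 3 or more of 7 macrophage lineage genes, C1qa, C1qb, C1qc, Csf1r, Fcer1g, Tyrobp and Ctss. It also needed 2 or more of 5 homeostatic microglial genes, P2ry12, Tmem119, Siglech, Gpr34 and Sall1. Last, it had 2 or more of 6 inflammatory genes, Ccl2, Ccl3, Ccl4, Ccl12, Tnf and Il1b. By this rule 1223 of 64617 kept barcodes were members, 1212 from tumors and 11 from controls. The 2850 microglia that met the first 2 criteria but held at most 1 of the 6 genes were the comparison cells.

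The tumors came from 5 mice carrying the NestinCreERT2 and Fus1 alleles, in which a Cre under Nestin control, active on tamoxifen, switches on a conditional ZFTA-RELA fusion in cells that express Nestin. The 4 control mice were labelled NestinCreERT2 with TdT, so both groups shared the Cre. The study's general protocol describes dissecting tumors by TdTomato fluorescence and taking matched regions from mice without tumors. In these libraries the added TdTomato sequence was found in controls only. Barcodes with at most 1 lineage gene had 342 to 1092 UMIs of it per control and 0 in every tumor. All mice were 6 to 8 weeks old, and each mouse was 1 library. Sample titles of both groups also carry the label Endoint, read here as endpoint. Tissue was taken without choroid plexus, dissociated with enzymes and mechanically, cleared on Percoll and sorted, so the microglia are those that survived these steps.

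Microglia sense damage and microbial products through Toll-like receptors, CD14 and the inflammasome. Their signals converge on the transcription factor NF-κB, which switches on chemokines, cytokines and its own inhibitors. Ccl2, Ccl7 and Ccl12 encode ligands of CCR2, the receptor that draws monocytes out of the blood. Ccl3 and Ccl4 encode chemokines that attract monocytes and T cells, whereas Tnf and Il1b encode cytokines that activate NF-κB in neighbouring cells. Immediate early genes such as Fos and Egr1 are transcribed within minutes of many stimuli.

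The libraries held 101060608 to 178086164 UMIs in the controls and 14967680 to 69411387 in the tumors. Barcodes with 15% or more mitochondrial UMIs were dropped, 1870 to 3573 per control, 7154, 4041 and 2220 in tumors 1 to 3, but only 1 and 3 in tumors 4 and 5. The lineage genes had a median of 63.9 to 83.6 UMIs per 1000 in the members of a tumor. Barcodes with at most 1 lineage gene had 2.79 to 4.66 in tumors and 1.78 to 2.00 in controls. C1qa, a complement component made by microglia, had 9507 to 11386 CPM (UMIs per 1000000) in members of tumors and 19.1 to 64.9 CPM in neural barcodes of the same tumors. Csf1r, the receptor on which microglial survival depends, had 669.8 to 2410.5 CPM in members and 0 to 12.7 CPM in those neural barcodes. Of 6 T and NK cell markers the members of a tumor had 0 to 7.58 CPM in sum, and of 6 neutrophil markers 0 to 21.7 CPM. Border macrophage markers summed to 79.7 to 739 CPM in members. The rule used the lineage genes and set the barcodes they are compared with, so those levels describe the choice and do not test the label.

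Members were found almost entirely in tumors. Of the microglia of tumors 1 to 5, 19.5%, 34.3%, 17.4%, 56.0% and 27.9% were members, from 50 of 256, 234 of 683, 121 of 696, 663 of 1183 and 144 of 516 cells. In controls 1 to 4 the shares were 0.513%, 0.995%, 1.25% and 3.28%, from 1 of 195, 2 of 201, 2 of 160 and 6 of 183. Every tumor lay above every control, and tumor 4 was the highest. Tumors averaged 31.0% ± 15.5 (SD, n = 5) and controls 1.51% ± 1.22 (SD, n = 4), which is 29.5 percentage points apart (p = 0.0159 in a two-sided exact permutation test, the least that 126 splits can give). The rule did not use the genotype, but it was set with earlier results of these data known. The p-value thus describes these mice and is no independent test of the 6 genes.

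**Figure D1:**
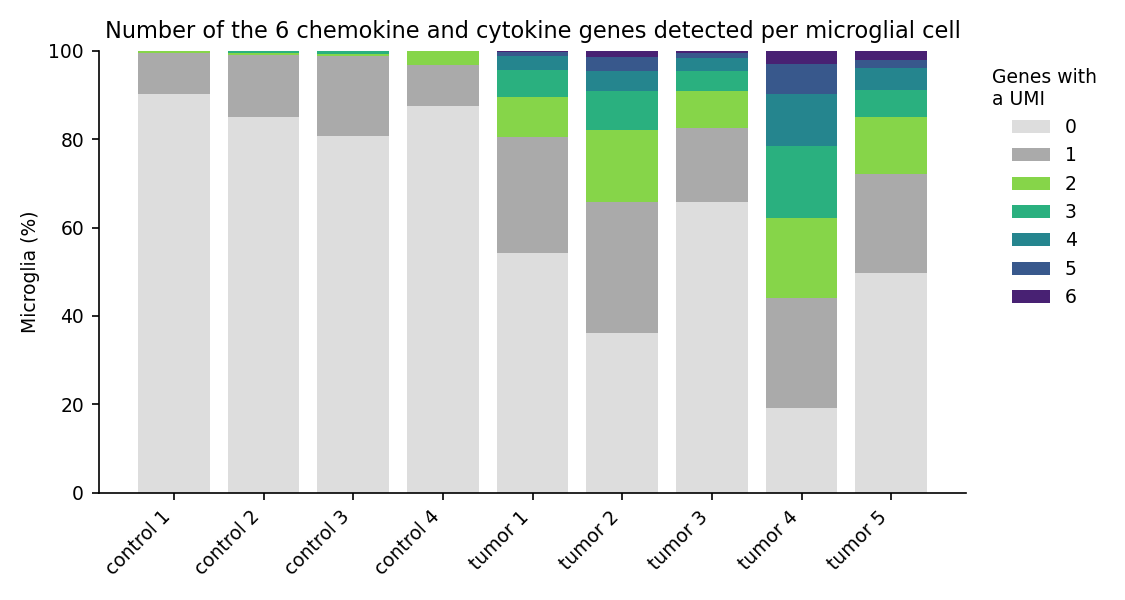
Microglia of each mouse by how many of the 6 inflammatory genes had at least 1 UMI, as a percent of that mouse's microglia (y axis); members are the coloured classes with 2 or more. Coloured classes fill 17.4% to 56.0% of the bar in the 5 tumors and 0.513% to 3.28% in the 4 controls.

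Every tumor also lay above every control after cells were thinned. Microglia of controls had a median of 1922 to 3838 UMIs per cell, and those of tumor 3 had 1450.5, below every control. After each cell was thinned to 1000 UMIs the member share was 10.3% to 36.1% in tumors and 0% in every control (difference 18.6 points, exact permutation test, p = 0.0159). Thinning left out 223 shallower microglia of tumor 3, 6 of tumor 1 and 1 of tumor 2. Thinned cells had to meet the microglial criteria again, and over all mice most losses came from that step, as in tumor 4, where 321 of 1183 cells were left and none was too shallow. The thinned shares thus rest on a reselected set, of 184 to 366 cells per tumor and 98 to 143 per control. As background from free RNA, barcodes with 2 or more neuronal or neuroblast genes and at most 1 lineage gene were counted. Of these, 0 of 5213 to 6834 per control held 2 or more of the 6 genes. In tumors 1 to 5 the counts were 0 of 1011, 7 of 852, 0 of 646, 1 of 179 and 3 of 2056, at most 0.822%. A microglial cell that held 1 gene needed only 1 more to be a member, and the part of free RNA in the shares was not tested. Of the same neural barcodes, 1.19%, 8.69%, 9.60%, 14.5% and 4.86% in tumors 1 to 5 held 1 or more of the 6 genes. In controls 0.633% to 0.962% of them did. The median depth of these barcodes in tumors 1 to 5 was 1811, 2591.5, 986, 5281 and 2354 UMIs, against 2416.5, 3350, 1450.5, 4394 and 2816 in the microglia. They were shallower than the microglia except in tumor 4, so in the other 4 tumors the shares were not set at matched depth.

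The cut at 2 genes divided a continuum. Just outside it, microglia with 1 of the 6 genes numbered 67, 202, 117, 294 and 115 in tumors 1 to 5. Just inside it, those with 2 genes numbered 23, 111, 57, 215 and 67. All 6 genes were detected together in 1, 9, 3, 36 and 11 cells. Members were deeper than the comparison cells, with medians of 3392 against 2285 UMIs in tumor 1, 4494.5 against 2833 in tumor 2, 8440 against 1224 in tumor 3, 4531 against 4135.5 in tumor 4 and 4924.5 against 2375.5 in tumor 5. A deeper cell has more chances to show 2 genes, and the gap was widest in tumor 3. Counts of called genes with every cell thinned to 1000 UMIs are therefore given with the gene lists in which genes rose. Of 1217 members whose barcode could be read, 5 shared it with a kept barcode of another library, and no 2 members shared one.

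The 6 genes chose the members, so their levels there are a description. Ccl4 was the most abundant by UMIs, with 1071, 1600, 5237, 2291 and 2458 CPM in the members of tumors 1 to 5. Ccl3 had 889, 788, 2424, 537 and 1161 CPM, highest in tumor 3 as Ccl4 was. Ccl12 had 434, 1737, 338, 1197 and 2946 CPM, so tumors 1 and 3 were low where tumors 2, 4 and 5 were high. Ccl12 is a mouse chemokine with no direct human counterpart, encoded on chromosome 11 as Ccl2 is.

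Ccl2 had 824 CPM in tumor 1 and 281 to 331 CPM in the other 4. Il1b, the pro-form of interleukin-1β, had 115 and 98.7 CPM in tumors 1 and 2 and 605 to 737 CPM in tumors 3 to 5. Tnf, with 104, 144, 24.2, 131 and 250 CPM, was the least abundant in 4 of 5 tumors, and Il1b was in tumor 2. The tumors therefore differed in which gene dominated. Ccl4 led in tumors 1, 3 and 4, and Ccl12 in tumors 2 and 5, by CPM without correction for transcript length.

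**Figure D2:**
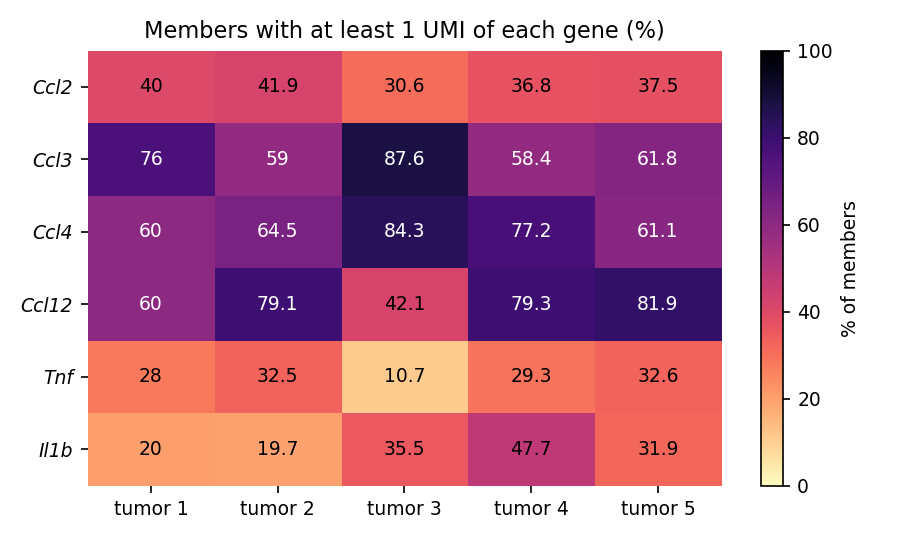
Percent of members with at least 1 UMI of each of the 6 genes (rows) in tumors 1 to 5 (columns); darker is higher. Tumor 3 has the lowest percents for Ccl12 (42.1%) and Tnf (10.7%) and the highest for Ccl3 (87.6%) and Ccl4 (84.3%).

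By detection the members were mixed rather than uniform. Ccl4 was found in 60% to 84.3% of a tumor's members, Ccl3 in 58.4% to 87.6% and Ccl12 in 42.1% to 81.9%. Ccl2 was found in 30.6% to 41.9%, Il1b in 19.7% to 47.7% and Tnf in 10.7% to 32.6%. Over the 1212 members of tumors, Ccl4 and Ccl12 were found together in 614 (50.7%) and Ccl3 and Ccl4 in 609 (50.2%). Ccl2 and Tnf shared 134 members (11.1%), the fewest of the 15 pairs. The most frequent exact combination was Ccl3 with Ccl4 and no other gene, in 100 members (8.25%), and 60 members (4.95%) had all 6. Combinations pool cells from 5 mice of unequal number, and 663 of the cells came from tumor 4. Among the 11 control members, 4 had Ccl3 with Ccl4 only and 3 had Ccl2 with Ccl12 only.

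Members held most of the Tnf, Ccl3 and Ccl4 of the kept barcodes. For Tnf they held 65.2% to 73.1% of the UMIs in a tumor, for Ccl3 63.1% to 85.2% and for Ccl4 62.4% to 87.7%. Ccl12 was shared more widely, with 42.9% to 60.7% in members and 10.2% to 37.0% in comparison microglia. Ccl2 was also found in other cells. Barcodes that failed the macrophage lineage criterion held 49.9% of its UMIs in tumor 2, 47.2% in tumor 5 and 20.4% in tumor 4, against 2.15% and 3.36% in tumors 1 and 3. In tumor 2, 52.3% of Il1b UMIs were in barcodes with the lineage genes but fewer than 2 homeostatic ones, and members held 20.3%. In tumors 1, 3, 4 and 5 members held 56.8%, 69.6%, 57.5% and 72.0% of the Il1b UMIs.

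Ccl12 (ENSMUSG00000035352, chr11:82101845-82103400, plus strand) and Ccl2 (ENSMUSG00000035385, chr11:82035571-82037453, plus strand) are both on chromosome 11 in GRCm38. Ccl3 (ENSMUSG00000000982, chr11:83647844-83649355, minus strand) and Ccl4 (ENSMUSG00000018930, chr11:83662584-83664683, plus strand) are on the same chromosome with opposite orientation. Tnf is ENSMUSG00000024401 (chr17:35199381-35202007, minus strand), and Il1b is ENSMUSG00000027398 (chr2:129364570-129371139, minus strand). The table of RefSeq promoters (GRCm38.p6) held 4 of the 6 genes. They are shown because the genes were found in the same cells, as the 100 bases around the start, 50 on each side, 5′ to 3′ on the gene's strand, with TATAAA in capitals.
Ccl12 (chr11:82101795-82101894): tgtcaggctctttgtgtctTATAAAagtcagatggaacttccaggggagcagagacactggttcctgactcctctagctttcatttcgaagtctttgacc
Ccl3 (chr11:83649329-83649428): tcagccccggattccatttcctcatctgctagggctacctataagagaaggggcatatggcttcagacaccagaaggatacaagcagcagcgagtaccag
Tnf (chr17:35201958-35202057): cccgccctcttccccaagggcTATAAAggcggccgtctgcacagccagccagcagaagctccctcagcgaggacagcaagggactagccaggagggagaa
Il1b (chr2:129371090-129371189): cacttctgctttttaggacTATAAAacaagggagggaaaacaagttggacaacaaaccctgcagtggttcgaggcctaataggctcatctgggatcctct
TATAAA on either strand was in 3 of these 4 windows, starting 29 to 31 bases before the start, and in 4.94% of the same window of 32851 promoters. The 10-letter NF-κB consensus, searched on both strands of the whole 300 bases of each entry, was in none of the 4 and in 8.46% of all. These are letter matches and show no binding.

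Over all microglia, members and others together, each of the 6 transcripts was higher in every tumor than in every control. UMIs were summed over the microglia of each mouse for these levels. A higher share of cells with these transcripts largely fixes a higher sum, so the levels are a description with no test. How many of all genes separated the groups in this way was not counted. In edgeR's fit of the same sums, 25.3% of 9548 genes were called higher in tumors.

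Ccl4 had 308 to 2250 CPM in the tumors and 5.42 to 15.01 CPM in the controls, a fitted log2 difference of 7.46 ± 0.67 (SE). Ccl3 had 266 to 1073 CPM against 2.50 to 10.8 CPM, a difference of 6.80 ± 0.60. No tumor overlapped a control for either gene. Ccl12 was the most abundant of the 6 in control microglia, with 24.4 to 110 CPM against 187 to 1369 CPM in tumors, and it had the smallest difference, 4.05 ± 0.69.

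Ccl2, Tnf and Il1b were near 0 in control microglia, so pooled ratios with exact counting intervals stand in for folds. Ccl2 had 5 UMIs over all controls and 2093 over all tumors, a ratio of UMI shares of 74.0 (95% interval 31.6 to 228). Tnf had 2 and 867 UMIs, a ratio of 76.6 (21.1 to 634). Il1b had 2 and 3536 UMIs, a ratio of 312 (86.4 to 2581). These intervals cover counting error and not the spread between mice. Il1b was lowest in tumor 1 at 34.6 CPM and highest at 355 CPM.

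**Figure D3:**
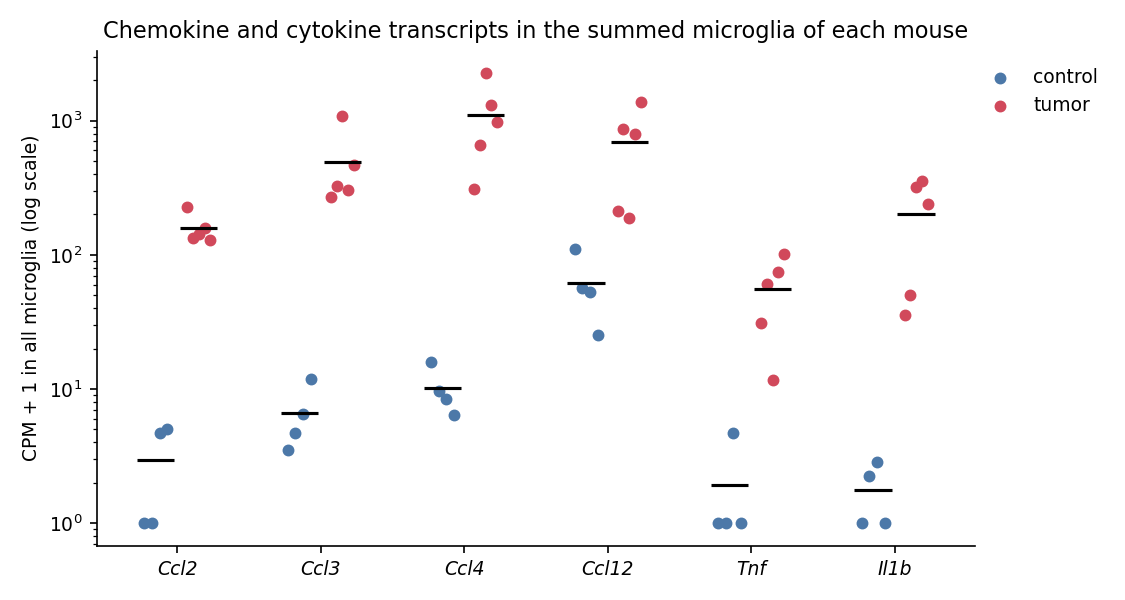
Level of each of the 6 genes in the summed microglia of each mouse, as CPM + 1 on a log axis; points are mice (blue, 4 controls; red, 5 tumors) and black lines are group means. For every gene each tumor lies above each control; Ccl4 spans 308 to 2250 CPM in tumors and 5.42 to 15.01 in controls.

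RNA of other cells differed between the groups in both directions. edgeR's quasi-likelihood fit of the sums covered 9560 genes, and the 9548 that did not select microglia are counted. Of these, 25.3% were higher in tumors and 22.9% lower (Benjamini-Hochberg adjusted p under 0.05), so a difference was common. Neuron markers summed to 5885 to 7264 CPM in control microglia and to 151 to 1172 CPM in tumor microglia, and 6 of the 7 neuron markers were lower in tumors, as were 2 of 6 oligodendrocyte markers. Tumor cell markers summed to 63.7 to 110 CPM in control and 122 to 3118 CPM in tumor microglia, and 4 of 5 were higher in tumors. Endothelial markers summed to 26.0 to 63.4 CPM in control and 75.4 to 133 CPM in tumor microglia (2 of 3 tested were higher), and 2 of 6 astrocyte markers were higher. Border macrophage markers summed to 30.02 to 185 CPM in control and 42.4 to 521 CPM in tumor microglia, and 3 of 3 tested were higher in tumors. In tumors 2 and 4, 21.5% and 21.6% of microglia carried 2 or more of these markers, against 0.498% to 3.75% in controls and 0.581% to 4.31% in the other tumors. Erythroid markers summed to 185 to 2606 CPM in controls and to 17.3, 47.2, 18282, 372 and 30.1 CPM in tumors 1 to 5. Of 4 tested 0 were called higher or lower in tumors. The median of lineage UMIs per 1000 was 33.6 to 39.7 in control microglia and 59.0 to 88.3 in tumor microglia. The part of this other RNA in the differences was not tested.

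The next comparison asks which other genes differed between members and comparison microglia of the same tumor. The 2 sums of each of the 5 tumors were tested with the mouse as a block. Fit and adjustment covered 9297 genes, and the 9279 outside the rule are counted. Controls could not enter, since none had 10 members. Of the genes, 3.56% were higher in members (330) and 2.89% lower (268). The counts were 188 and 102 with DESeq2, 117 and 70 without tumor 4, 199 and 128 without tumor 2, 210 and 94 without tumor 5, and 3 and 0 with no block for the mouse. With every cell thinned to 1000 UMIs and chosen again, 46 of 1986 genes rose and none fell, with 152 genes at an unadjusted p under 0.05. The median difference over all 9279 genes was -0.01. Where genes of a list are counted tumor by tumor below, the matching share over all genes was not counted. Since cells were split by transcripts counted in the same cells, depth and free RNA differ with the split.

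Other chemokines were also higher in members. Of 10 other chemokines tested, 7 were higher in members and 1 lower, with a median difference of 1.06. After thinning edgeR called none of the 3 that could be tested, with 0 at an unadjusted p under 0.05. Cxcl10, a ligand of CXCR3 on T and NK cells, had 32.9, 335, 198, 186 and 180 CPM in the members of tumors 1 to 5 against 1.95, 27.0, 5.23, 23.2 and 14.98 CPM in the comparison cells. It was higher in 5 of 5 tumors, by 3.77 ± 0.22 (SE, edgeR adjusted p = 1.83e-07), the smallest p of the genes outside the rule. Cxcl10 was found in 8% to 18.4% of a tumor's members. In tumor 1 it had 6 UMIs in 4 of 50 members and 1 UMI in the comparison cells, under the limit of 3 counts.

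Ccl7, a ligand of CCR2, had 533, 49.3, 97.7, 109 and 5.496 CPM in members and 0 to 15.1 CPM in comparison cells, a difference of 4.28 ± 0.44 (edgeR adjusted p = 1.04e-04). Few members carried it, 4 of 50 in tumor 1 with 97 UMIs between them and 2.08% to 13.9% of members over the 5 tumors. In tumor 5 it had 4 UMIs, near the limit of 3 counts. Cxcl2, which attracts neutrophils, had 237 to 276 CPM in tumors 2 to 4 and only 16.5 and 9.62 CPM in tumors 1 and 5, with a difference of 3.32 ± 0.41 (adjusted p = 3.92e-04). Its value in tumor 1 was 3 UMIs, at the limit of 3 counts, and in tumor 5 7 UMIs in 1 of 144 members. Cxcl16 rose by 1.00 ± 0.20 (adjusted p = 0.0108). Cxcl14 was the one that fell, by 1.22 (SE 0.22, adjusted p = 0.00593). Ccl5 did not pass (0.60 ± 0.21, adjusted p = 0.108).

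Of 5 chemokine receptors tested 2 rose, and 0 of 2 after thinning. Ccrl2, an atypical receptor that binds chemerin, rose by 2.69 ± 0.28 (edgeR adjusted p = 1.07e-04). Cx3cr1, the fractalkine receptor typical of microglia, had 458 to 2240.2 CPM in members and 401 to 1781 CPM in the others and did not pass (0.34 ± 0.13, adjusted p = 0.144).

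Of 7 other cytokines tested 4 rose and none fell, and 2 of 3 rose after thinning. Il1a, the second interleukin-1 gene, had 65.9, 140, 192, 141 and 382 CPM in members against 33.2, 31.4, 26.1, 16.9 and 30.8 CPM in comparison cells. Members were higher in every tumor, and the difference was 2.87 ± 0.25 (edgeR adjusted p = 2.48e-05). Osm, oncostatin M, rose by 2.70 ± 0.39 (adjusted p = 0.0016) and Csf1, a ligand of Csf1r, by 1.67 ± 0.25 (adjusted p = 0.00229). Il12b, a subunit of interleukins 12 and 23, had 129 CPM in the members of tumor 5 and 17.6 CPM or less in those of the other tumors, and was too sparse to be tested. Csf2, which encodes GM-CSF, had 0 UMIs in the members of all 5 tumors, which allows up to 0.875 CPM in tumor 4 and 16.5 CPM in tumor 1.

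Genes of the NF-κB feedback loop were mostly higher in members. Of the 20 on the list 16 were tested, and 10 rose and none fell, with a median of 0.95. After thinning 4 of 6 rose. Nfkbiz, an inducible nuclear partner of NF-κB, had 110, 100.4, 208, 158 and 85.2 CPM in members and 7.81, 23.2, 8.96, 22.4 and 7.05 CPM in the others (3.23 ± 0.26, edgeR adjusted p = 7.87e-06). Tnfaip3, which encodes the inhibitor A20, rose by 2.65 ± 0.24 (adjusted p = 3.74e-05), and Nfkbia, which encodes IκBα, by 1.74 ± 0.24 (adjusted p = 0.0012). Cd83, a surface protein of activated antigen-presenting cells, rose by 1.86 ± 0.24 and Birc3, an inhibitor of cell death, by 1.65 ± 0.24. Counted tumor by tumor without a test, 17, 16, 19, 17 and 20 of the 20 genes were higher in members.

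Of 15 sensors and receptors tested 4 rose, and 2 of 7 after thinning. Tlr2, which recognises lipoproteins, had 132, 349, 145, 189.9 and 315 CPM in members against 43.0, 165, 31.4, 89.0 and 80.2 CPM in the others (1.65 ± 0.18, edgeR adjusted p = 1.34e-04). Cd14, the co-receptor for endotoxin, rose by 1.56 ± 0.22 (adjusted p = 0.0012). Nlrp3, the inflammasome sensor upstream of interleukin-1β release, rose by 1.38 ± 0.16 (adjusted p = 2.64e-04). C5ar1 and C3ar1, receptors for complement fragments, rose by 1.35 ± 0.15 and 0.99 ± 0.15, as 2 of 5 complement genes tested. After thinning edgeR called 0 of 3 complement genes, with 2 higher at an unadjusted p under 0.05.

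**Figure D4:**
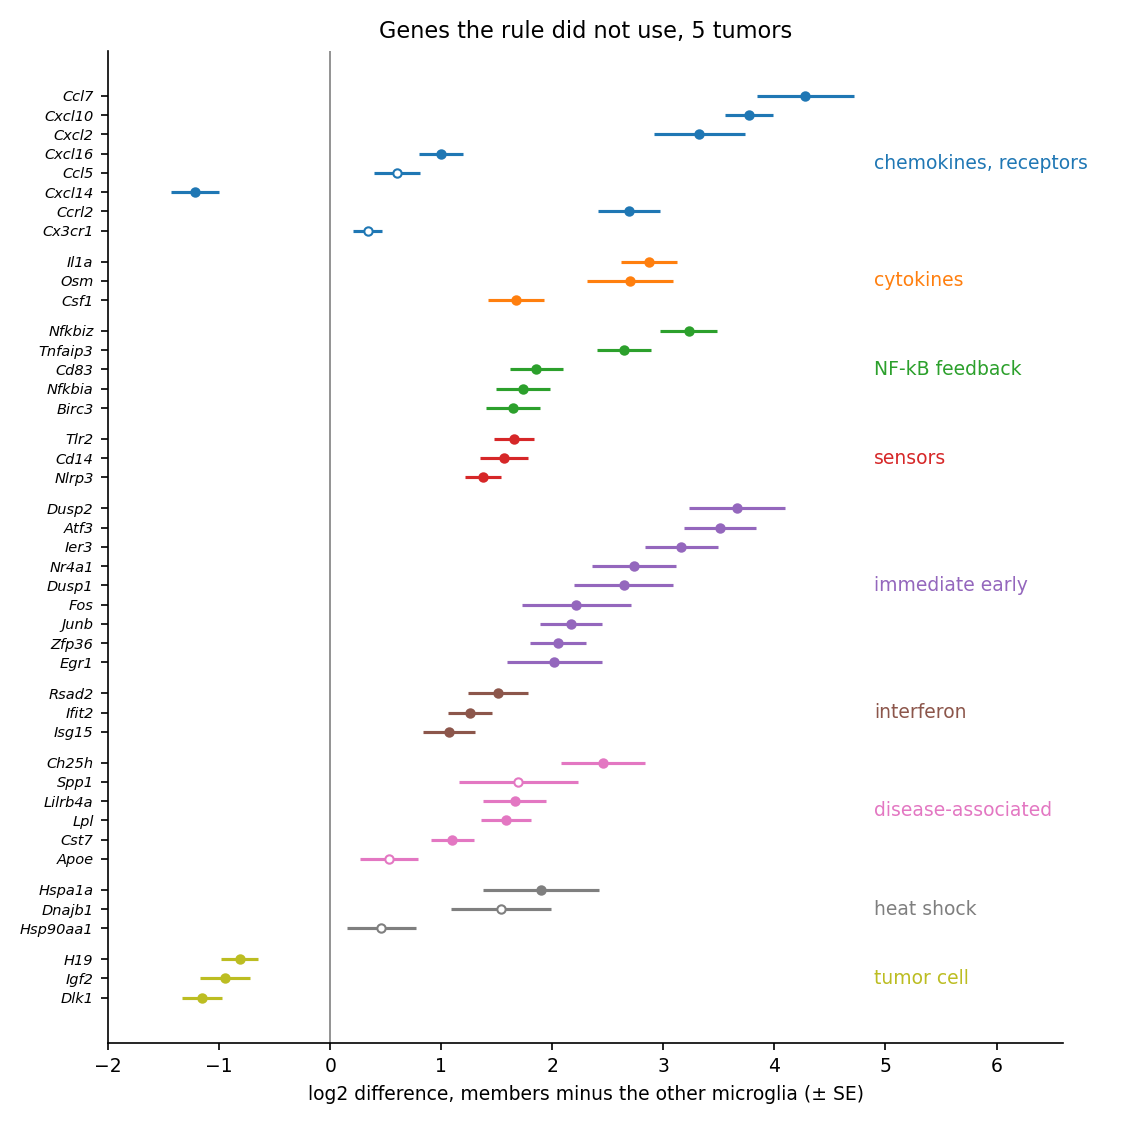
Log2 difference between members and comparison microglia of the same tumor (x axis, bars are SE, 5 tumors) for selected genes of 9 groups that the rule did not use, coloured by group; filled points passed edgeR's adjusted p of 0.05. Of the genes plotted, Ccl7 is highest at 4.28 and Cxcl14 lowest at -1.22.

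Immediate early genes rose together in the fit, but not in every tumor. All 20 tested passed, with a median of 2.19, and 14 of 15 after thinning. Atf3, a stress-induced transcription factor, had 225, 335, 2645, 1034 and 50.8 CPM in members against 15.6, 52.9, 81.4, 128 and 12.3 CPM in the others (3.51 ± 0.32, edgeR adjusted p = 3.74e-05). Fos had 1180.4, 504, 2953, 1003 and 20.6 CPM in members against 135, 232, 112, 390.5 and 29.95 CPM (2.22 ± 0.49, adjusted p = 0.0192). Members were higher in tumors 1 to 4 and lower in tumor 5, where Fos was low in both states.

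Over the 21 genes of the list, members were higher in 21 of 21 in each of tumors 1 to 4 and in 11 of 21 in tumor 5. The median log2 ratio of CPM + 10 was 2.22, 1.15, 3.52 and 1.34 in tumors 1 to 4 and 0.08 in tumor 5. The share of all genes that were higher in the members of each tumor was not counted. In neural barcodes of tumors 1 to 5 Fos had 33.0, 279, 191, 625 and 47.1 CPM, so Fos was also detected outside microglia. In tumor 5 Ier3 (438 against 25.5 CPM) and Dusp2 (78.3 against 1.76 CPM) were nevertheless higher in members. Dusp2, Dusp1 and Zfp36 encode brakes on kinase signalling and on cytokine mRNA, and Junb encodes an AP-1 subunit. They rose by 3.66 ± 0.43, 2.64 ± 0.44, 2.05 ± 0.25 and 2.17 ± 0.28. Without tumor 1 the number of these genes that passed was 13 of 20.

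Heat shock genes stood out in 1 tumor. Hspa1a, an inducible HSP70 gene, had 4915 CPM in the members of tumor 3 and 297 CPM in its comparison cells, against 0 to 97.4 CPM in the members of the other tumors. All 9 genes of the list were higher in members of tumor 3, with a median log2 ratio of 2.42, whereas 3, 6, 4 and 2 of 9 were in tumors 1, 2, 4 and 5. The matching share over all genes was not counted. The fit called 1 of 9 (Hspa1a, 1.90 ± 0.52, edgeR adjusted p = 0.0482). After thinning edgeR called none of 4, with 2 higher at an unadjusted p under 0.05. Dnajb1 (1.54 ± 0.45, adjusted p = 0.0565), Hspa1b (1.51 ± 0.66, adjusted p = 0.204) and Hsp90aa1 (0.46 ± 0.31, adjusted p = 0.435) did not pass. Tumor 3 also had the widest depth gap, and erythroid markers summed to 30562 CPM in its comparison cells and 1711 CPM in its members. The part of these in the heat shock values was not tested.

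**Figure D5:**
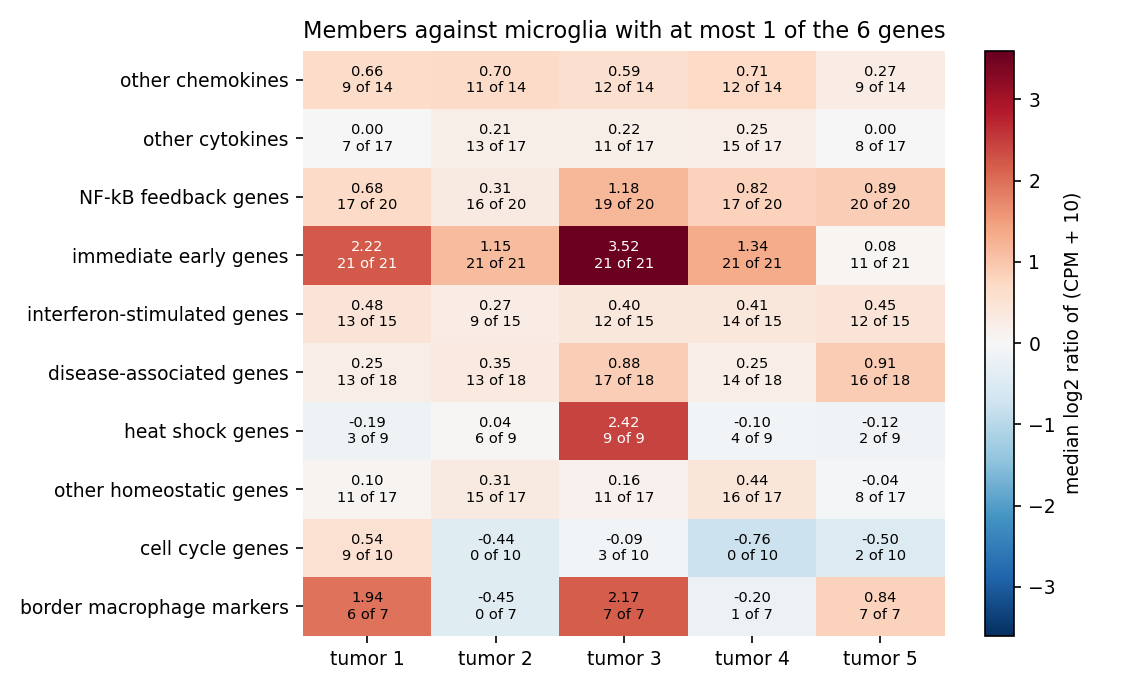
Median log2 ratio of CPM + 10 between members and comparison microglia for each gene list (rows) in tumors 1 to 5 (columns), with the number of genes higher in members; red is higher in members. Immediate early genes reach 3.52 in tumor 3 and 0.08 in tumor 5, and heat shock genes 2.42 in tumor 3 only.

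Of 15 interferon-stimulated genes tested 7 rose, with a median of 0.61. After thinning edgeR called none of 5, with 2 higher at an unadjusted p under 0.05. Rsad2, which encodes the antiviral protein viperin, rose by 1.51 ± 0.27 (edgeR adjusted p = 0.00617), Ifit2 by 1.26 ± 0.20 (adjusted p = 0.00287) and Isg15 by 1.07 ± 0.23 (adjusted p = 0.0176). Rsad2 was lower in members in tumor 1, at 5.49 against 13.7 CPM, where the limit of 3 counts in members was 16.5 CPM. Without tumor 4, the tumor with most members, edgeR called none of 14 tested, with 9 higher at an unadjusted p under 0.05. Of the MHC class I genes 2 of 7 rose, H2-K1 by 0.58 ± 0.14 and H2-D1 by 0.52 ± 0.14. Of the class II genes 1 of 4 rose, and H2-Ab1 (1.09 ± 0.34, adjusted p = 0.0750) and Cd74 (0.79 ± 0.42, adjusted p = 0.296) did not pass. After thinning edgeR called 0 of 4 class I and 0 of 2 class II genes, with 0 at an unadjusted p under 0.05. Without tumor 4 it called 0 of 7 class I and 0 of 4 class II genes. There 4 and 3 were higher at an unadjusted p under 0.05.

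The genes of disease-associated microglia are lipid-handling and lysosomal genes known from plaques and demyelinated tissue. Of 18 tested 9 rose, with a median of 0.64. After thinning edgeR called none of 13, with 3 higher and 1 lower at an unadjusted p under 0.05. Ch25h, which makes 25-hydroxycholesterol, had 5.49, 144, 8.06, 46.1 and 352 CPM in members against 5.86, 24.3, 10.5, 15.4 and 25.5 CPM in the others (2.46 ± 0.38, edgeR adjusted p = 0.00248). It was higher in tumors 2, 4 and 5. In tumor 1 members had 1 UMI, under the limit of 3 counts, and comparison cells 3, so no direction is read there. In tumor 3 members had 8 UMIs and comparison cells 14, slightly lower as CPM. Lilrb4a, an inhibitory receptor, rose by 1.66 ± 0.29, Lpl, lipoprotein lipase, by 1.58 ± 0.22 and Cst7, a protease inhibitor, by 1.10 ± 0.20. Spp1, osteopontin, did not pass (1.69 ± 0.54, adjusted p = 0.0790), with members lower in tumor 4 and, slightly, in tumor 2. Apoe, a lipid carrier, had 14296 to 60209 CPM in members and did not pass (0.53 ± 0.26, adjusted p = 0.265).

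edgeR called no homeostatic gene lower in members. Both states needed 2 or more of the 5 homeostatic genes of the rule, so cells that had lost them were left out of both. Of 17 homeostatic genes outside the rule 4 rose and none fell, with a median of 0.31, among them Trem2, a lipid receptor (0.51 ± 0.13, edgeR adjusted p = 0.0390). After thinning 1 of 17 rose, with 1 higher and 1 lower at an unadjusted p under 0.05. Counted without a test in tumors 1 to 5, 11, 15, 11, 16 and 8 of the 17 were higher in members. Of the 5 genes of the rule 1, 3, 1, 4 and 1 were. Of 10 cell cycle genes edgeR and DESeq2 called none, with a median of -0.54 and 7 lower at an unadjusted p under 0.05 in edgeR and 0 in DESeq2, and Mki67 and Top2a differed by -0.54 ± 0.23 and -0.74 ± 0.26.

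Markers of other cells were among the genes that fell. Of 4 tumor cell markers tested 3 fell, Dlk1 by 1.15 (SE 0.18), Igf2 by 0.95 (SE 0.22) and H19 by 0.81 (SE 0.17). So did 2 of 7 neuron, 2 of 5 oligodendrocyte, 1 of 6 astrocyte, 1 of 3 monocyte and 1 of 1 erythroid markers, and 0 of 5 endothelial. The markers of tumor cells summed to 54.9 to 2145 CPM in members and 146 to 4344 CPM in comparison cells. The 10 fallen genes with the smallest p were Wnt10a, Grifin, Gria2, Fermt2, Dlk1, Mfap2, Nav1, Lmo1, Efnb1 and Cdkn1c, from -1.48 to -0.83. With cells limited to those whose lineage genes made up at least 1% of UMIs, a choice made after seeing the data, the number that fell was 26 in place of 268, and 152 rose in place of 330. Border macrophage markers summed to 708, 381, 739, 332 and 79.7 CPM in members and 164, 614, 180.0, 421 and 18.5 CPM in the others. They were higher in members in tumors 1, 3 and 5 and lower in tumors 2 and 4. Of members, 6%, 18.4%, 14.0%, 19.6% and 0.694% in tumors 1 to 5 carried 2 or more of these markers. Of comparison cells 1.94%, 23.2%, 2.26%, 24.2% and 0.538% did. edgeR called none of the 4 tested (1 at an unadjusted p under 0.05, 0 in DESeq2), Pf4 among them (0.84 ± 0.42, adjusted p = 0.268). Without tumor 4 edgeR called 1 of 5 tested, with 4 higher in members and 0 lower at an unadjusted p under 0.05.

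Among genes that kept their direction with each mouse left out, the 10 that rose with the smallest p were Cxcl10, Nfkbiz, Il1a, Atf3, Tnfaip3, Gem, Ccrl2, Ier3, Slc15a3 and Tlr2. Ccl7, with a smaller p than the last 4 of these, was not among them because it was too sparse to be tested without tumor 4. Gem, a small GTPase, rose by 3.01 ± 0.28, Ier3, which limits apoptosis, by 3.16 ± 0.33 and Slc15a3, an endolysosomal peptide transporter, by 1.38 ± 0.15 (edgeR adjusted p = 1.20e-04 for the last). The contrast between members and comparison cells could not be set between tumors and controls, since the controls had 1, 2, 2 and 6 members.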

How the data were processed

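The authors counted UMIs per gene and barcode with Cell Ranger (version 7 in the submitters' processing notes, 6.1.2 in the matrix headers) on mm10 with 4 added sequences, and deposited whole counts without normalization. In control 4 the barcode list (80865) and the feature list were shorter than the matrix (80887 columns), so barcodes there were used by column. Here, barcodes were ranked by UMIs in each library, the top 10000 taken, and those with 200 to 6000 genes and under 15% mitochondrial UMIs used. Doublets stayed in (Scanpy 1.11.5 Scrublet, 0.8% per 1000 barcodes, removed as an alternative; 100 of 1212 tumor members were marked). No deposited annotation was used. CPM is UMIs per 1000000 of the summed cells.

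Counts were summed per mouse and tested with edgeR 4.0.16 (quasi-likelihood, TMM, low counts filtered, Benjamini-Hochberg over all genes, threshold 0.05), with at least 10 cells per sum. Alternatives were DESeq2 1.42.0, limma voom 3.58.1, no filter, no doublets, thinning, stricter rules and each mouse left out. A count of 0 was given the limit of 3 counts; 95% intervals are Clopper-Pearson (exact) and cover counting error only. Labels do not name litters or batches. No pair of replicates matched within sampling noise. P-values of tumors against controls measure the spread between these mice. Those of members against comparison cells, with the mouse as a block, measure how the difference within a mouse varied over the 5 tumors. The fits were tested on simulated counts. Named genes are those of the lists and, between members and comparison cells, the 10 that rose and the 10 that fell with the smallest p and a direction kept with each mouse left out. The members and lists were chosen with earlier results of these data known. A few genes of the lists are not reported here.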

Additional observations from a re-analysis of the deposited data

Results flagged for a closer look

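In 13 of 74 groups of 4 or 5 mice that were tested, 1 mouse stood apart from the rest by Dixon's test at 95%, where chance gives about 1 in 20. Tumor 3 was that mouse for Ccl3 in all microglia (1073 CPM, next highest 463) and, in members, for Hspa1a (4915, next 97.4), Hspa1b (5095, next 35.1), Dnajb1 (639.9, next 40.0), Hsp90aa1 (1886, next 487), Nr4a1 (416, next 81.7) and Osm (143, next 48.5). Tumor 1 stood apart in members for Ccl2 (824 CPM, next 331) and Ccl7 (533, next 109). Tumor 4 did for Ccl5 (475, next 126), Isg15 (261, next 109.8) and Dlk1 (981, next 226). In control microglia Tnf had 3.71 CPM in control 3 and 0 in the others, but that value is 2 UMIs, under the 3-count limit of 5.56 CPM there, and with the others at 0 any UMI would be picked out. The Ccl7 value of tumor 1 came from 4 members.

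Luciferase, an added sequence that no comparison used, had 21 UMIs in the members of tumor 2 (17.6 CPM), 246 in tumor 4 (71.8 CPM) and 14 in tumor 5 (19.2 CPM), and 0 in control microglia. Barcodes with at most 1 lineage gene had more, 85.5, 285 and 73.6 CPM in the same tumors.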

How the results depend on the processing

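The higher member share in tumors kept its direction and its p under 0.05 with 3 or more of the 6 genes (17.8 percentage points), with 1 or more (40.8), with no homeostatic genes required (16.2) and in the other alternatives that left the groups whole. All of these used the same 6 genes, chosen with earlier results of these data known. With each mouse left out the difference was 23.3 to 32.9 points. With the replicate number as a block it was 30.3 points (exact p = 0.125, the smallest for 4 pairs). Same-numbered mice did not deviate together over all genes (correlations -0.09 to 0.07). Since labels name no litters or batches, whether same-numbered mice shared one could not be told. The block gave 2110 higher and 2033 lower genes over all microglia, within 1.5 times of 2417 and 2190. Thinning to 1000 UMIs gave 686 and 657 of 3441 genes, and each mouse left out 2083 to 2571 and 1929 to 2518.

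Calls between members and comparison cells moved more. DESeq2 gave 188 higher and 102 lower, no filter 551 and 623, thinning 46 and 0, lineage genes at 1% or more 152 and 26, and no replicate block, that is without the mouse, 3 and 0 (474 genes at an unadjusted p under 0.05). Leaving out 1 mouse gave 117 to 425 higher and 70 to 335 lower. The lowest counts, 117 and 70, were without tumor 4; without tumor 2 they were 199 and 128, and without tumor 5 210 and 94. Adjusting over genes outside the rule alone, a choice made after seeing the data, gave 327 and 264, and over all microglia 2411 and 2190. The causes were not tested. Cx3cr1 changed sign with thinning (-0.0356), and Hsp90aa1 without tumor 3 (-0.0226, up to 0.66 with another mouse left out); neither had passed. The 2 planned fits that need members in controls, members of tumors against members of controls and the difference of the contrast between groups, were not run, with 1 to 6 control members per mouse. In control microglia Tnf and Il1b had 0 to 2 UMIs per mouse, under the limit of 3 counts.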
